A study of Mus musculus with 6 samples.

Results

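The genes examined here are those of fatty acid oxidation and ketone body formation in mouse liver, in mitochondria and in peroxisomes. They were chosen by symbol: every probe set that the array annotation assigned to exactly 1 gene symbol on a list of 50 genes was taken. Of the 50 genes, 48 had such probe sets, 699 in all, out of 16277 genes and 229581 probe sets on the array. Acad11 had no such probe set, the 28 probe sets of Acaa1b were annotated to Acaa1a as well, and neither gene was analysed here. The list holds 2 genes of fatty acid uptake, 6 acyl-CoA synthetases, 16 mitochondrial genes and 12 peroxisomal genes. The remainder are 6 thioesterases, 2 genes of ketone body metabolism, 2 genes counted under both organelles and 4 genes of control.

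Total liver RNA was measured on 6 Affymetrix exon arrays, with many probe sets for most genes. Of these, 3 came from mice with a knockout of the splicing factor SRSF3 in hepatocytes (SRSF3HKO) and 3 from wild-type littermates (WT), all aged 1 month and untreated. The labels used here do not name the Cre driver of the knockout, and they speak of 3 SRSF3HKO mice without saying that each WT array is a separate animal, so the p-values speak only of the spread among these arrays. The comparison asks how the RNA of these genes differs when hepatocytes lack SRSF3.

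A fatty acid is taken up by the hepatocyte, activated to its acyl-CoA by a synthetase, and carried into an organelle before its chain is shortened by rounds of oxidation, hydration, oxidation and thiolysis. Mitochondria take long chains as carnitine esters and hand electrons to the respiratory chain through the electron transfer flavoprotein, whereas peroxisomes import acyl-CoA through ABC transporters, handle very long and branched chains, and export shortened chains as carnitine esters. In fasting, the liver turns mitochondrial acetyl-CoA into ketone bodies, and the nuclear receptor PPAR-alpha is known for raising many genes of both organelles.

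Levels are given as log2(intensity + 16), where a gene's level is the median over its probe sets, and every change is the SRSF3HKO mean less the WT mean on that scale, with its SE and 3 arrays per genotype. Genes were tested with limma, and a gene is called higher or lower where its Benjamini-Hochberg adjusted p over all 11711 genes tested was under 0.05. A floor of 5.35, the level reached by 10% of olfactory, vomeronasal and taste receptor genes, marks the dimmest level tested. The means of all 48 measured genes lay above it.

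Of the 48 genes, 12 were called, which is 25%, against 11.9% of all genes tested. Among them, 4 were higher in SRSF3HKO and 8 were lower, whereas of all genes tested 6.85% were higher and 5.03% were lower. The arrays of the genotypes did not overlap for 28 of the 48 genes, 8 higher and 20 lower, which is 58.3% against 35.6% of all genes tested. The median log2 change of the 48 genes was -0.28, beside 0.08 over all genes tested. The called genes were the synthetases Acsl1, Acsl5 and Acsm1, the peroxisomal genes Abcd3, Crot, Hacl1 and Decr2 and the ketone body gene Acat1, all lower, and Cd36, Eci2, Crat and Pdk4, all higher. None of the 16 mitochondrial genes and none of the 6 thioesterases was called. The counts by organelle depend in part on the grouping. Eci2, found in both organelles, was counted as peroxisomal, and the mitochondrial enzymes Acsm1 and Acat1 were counted outside the 16. All these counts also depended on the WT arrays: 1 of the 12 called genes kept its call without WT replicate 1, and 2 did without WT replicate 2 or 3. Between 10 and 11 kept it when 1 SRSF3HKO array was left out, and 5 kept it in a fit that also held the Y-linked signal. The 7 that lost it there were Cd36, Acsl5, Eci2, Decr2, Acat1, Crat and Pdk4 (limma adjusted p = 0.0547, 0.0870, 0.0830, 0.116, 0.0545, 0.0561 and 0.0704). The direction of all 12 was kept in each of 18 alternative analyses, and the call of Acsl1 was kept in all of them. Because the genotypes did not overlap for any of the 12, leaving out an array could not change the direction.

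**Figure D1:**
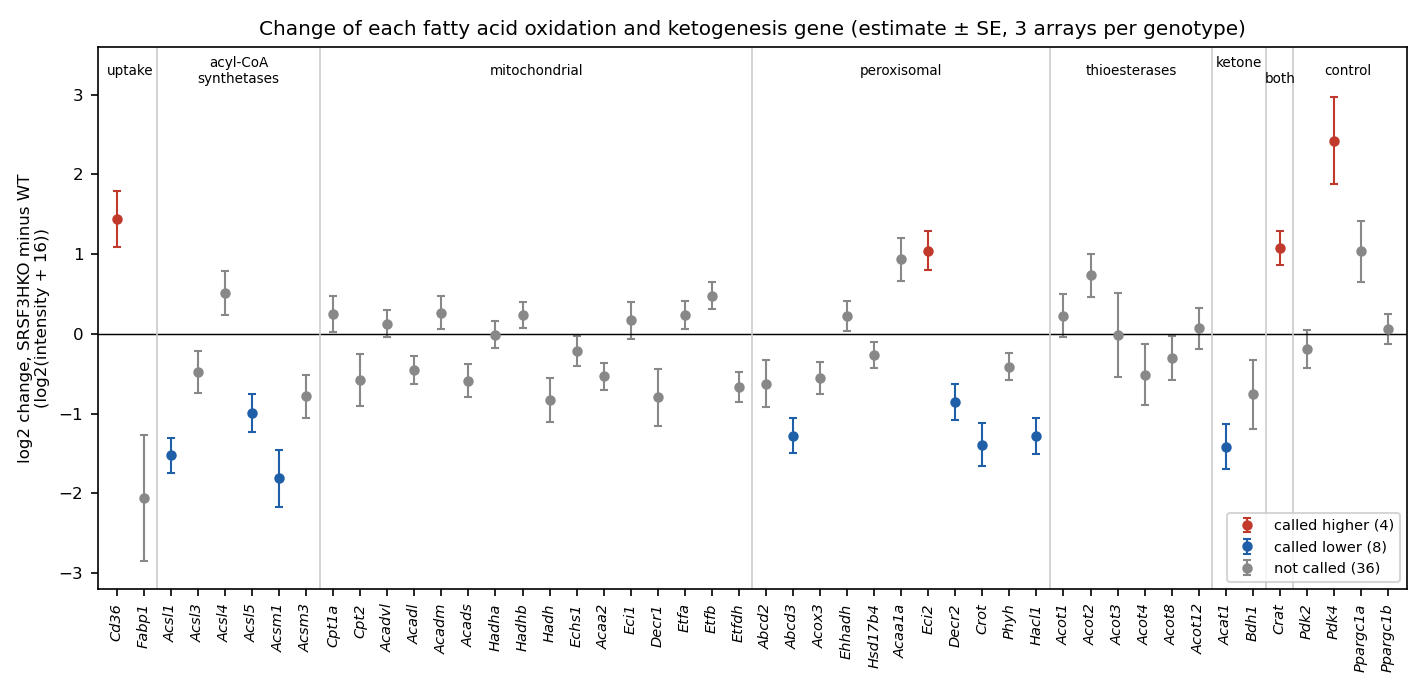
Log2 change of each measured gene, SRSF3HKO minus WT, in log2(intensity + 16) units, grouped by step, with bars showing the SE over 3 arrays per genotype. The 16 mitochondrial genes lie between -0.83 and 0.48 with none called, whereas the 11 peroxisomal genes run from -1.39 to 1.04 with 5 called.

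Pearson's r over the genes tested, which are not replicates, was 0.973 to 0.981 between WT arrays, 0.904 to 0.949 between SRSF3HKO arrays and 0.852 to 0.920 between genotypes. The median SD of the 48 genes was 0.194 in WT and 0.356 in SRSF3HKO, beside 0.187 and 0.291 over all genes tested. SRSF3HKO replicate 2 stood apart most often: it was the lowest of the 6 arrays for 18 of the 48 genes (37.5%, against 22.6% of all genes tested). At gene level Srsf3 itself was not called (log2 change 0.26 ± 0.31, limma adjusted p = 0.625). Of its 13 tested probe sets 6 were called higher and none lower, and 3 others had lower usage within the gene. Where its probe sets lie was not analysed here, and one that lies beyond the deleted stretch says nothing on the labels. A Y-linked gene, Eif2s3y, was above the floor in WT replicates 1 and 2 and SRSF3HKO replicate 3 and below it in the other 3 arrays. Within both sets of arrays the change of 42 of the 48 genes kept its sign, all 12 called genes among them. Where the genotypes do not overlap, as in those 12, the sign could not differ, so this does not test the Y-linked signal. The summed intensity of the 8 measured hepatocyte markers ran from 82175 to 82809 in WT and from 64472 to 78048 in SRSF3HKO. Among them Serpina1c, with 1 probe set, was called lower (log2 change -1.57, limma adjusted p = 0.00897). It and 3 others that were not called were lower without overlap (50% of the 8, against 14.0% of all genes tested). Changes were below 0 for 7 of the 8 and above for 1, with a median of -0.17. Alb, the main secreted protein, was at -0.02 (limma adjusted p = 0.930). The summed intensity of 10 macrophage markers was 3143 to 3567 in WT, 22297 in SRSF3HKO replicate 1, and 3785 and 4245 in replicates 2 and 3, and 1 of the 10, Marco, was called higher. Marco and others, 5 in all, were higher without overlap (50%, against 21.6% of all genes tested). Changes were above 0 for 9 of the 10 and below for 1, with a median of 0.99. The summed intensity of 10 markers of sinusoidal endothelium was 3616 to 5019 in WT and 2204 to 4717 in SRSF3HKO, and that of 7 adipocyte markers 364 to 505 and 332 to 460. Sums did not overlap for 6 cholangiocyte markers (497 to 710 in WT, 838 to 2988 in SRSF3HKO) and 5 erythroid markers (484 to 1026 and 112 to 281). Of the erythroid markers Alas2 was called lower, and it was the brightest of the 5 on every array, so it weighs most in their sum. Slc4a1 was lower without overlap and not called, Klf1 overlapped, and 2 of the 5 lay below the floor in both genotypes. None of the 5 cholangiocyte markers tested was called, and among all 6 only Spp1 was apart between genotypes. Its levels were 8.68, 8.34 and 8.25 in WT against 11.41, 9.30 and 9.25 in SRSF3HKO, highest on replicate 1 as for the macrophage sum. Kdr of the endothelial and Col3a1 of 10 stellate cell and fibroblast markers were called lower as well. The latter 10 did not move together: 4 changes were above 0 and 6 below, and Dcn (0.76) was higher without overlap. Their summed intensity was 3725 to 4592 in WT and 4060 to 7044 in SRSF3HKO. The part of these cell types in the changes below was not tested. In whole liver, fewer cells of a type and less RNA per cell cannot be told apart.

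Fabp1 and Cd36 serve fatty acid uptake, and they stood on opposite sides. Cd36, a membrane fatty acid translocase that macrophages and endothelium express as well, had levels of 8.37, 8.06 and 9.34 on the WT arrays and 10.44, 9.90 and 9.75 on the SRSF3HKO arrays. All SRSF3HKO arrays lay above the highest WT array, and the log2 change was 1.44 ± 0.35, a 2.71-fold higher level (limma adjusted p = 0.0355). The array with the highest macrophage markers, SRSF3HKO replicate 1, also had the highest Cd36. Without it the log2 change of Cd36 was 1.24, no longer called (limma adjusted p = 0.0703), and leaving out WT replicate 1, WT replicate 2 or SRSF3HKO replicate 3 ended it too (limma adjusted p = 0.136, 0.137 and 0.0524). Fabp1, the abundant cytosolic fatty acid binding protein of hepatocytes, had levels of 13.55, 13.49 and 13.43 in WT against 12.97, 9.25 and 12.05 in SRSF3HKO. Its WT arrays were nearly equal and its SRSF3HKO arrays were all lower, with replicate 2 far below the others. The log2 change of -2.06 ± 0.79 was not called (limma adjusted p = 0.128), and it was called without SRSF3HKO replicate 1, at -2.84, and without SRSF3HKO replicate 2, at -0.98 (limma adjusted p = 0.0323 and 0.0358).

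PPAR-alpha binds with its partner RXR to a direct repeat of the hexamer AGGTCA with 1 base between the copies, a motif for which the Fabp1 promoter is well known. The 250 bases before the gene start were read from RefSeq (GRCm38.p6) for 43 of the measured genes, in 48 windows. AGGNCANAGGNCA, the direct repeat searched on both strands, was found in 1 of these windows (2.08%, against 0.338% of all 32851 windows), that of Fabp1, where it starts 67 bases before the gene start. The hexamer AGGTCA alone was found in 9 windows (18.8%, against 14.0% of all), those of Acadm, Acadvl, Acot12, Acot4, Acsm1, Cd36, Cpt1a, Echs1 and Fabp1. The longer TNAAGGTCA, bound by estrogen-related receptors, was in none of the 48 windows (1.14% of all). The hexamer overlaps the other motifs wherever their letters hold it. The windows of Fabp1, at chr6:71199629-71199878 on the plus strand, of Cd36, at chr5:17835897-17836146 on the minus strand, and of Acsm1, at chr7:119617562-119617811 on the plus strand, are shown because these genes of the 9 had the largest changes. Capitals mark the direct repeat in Fabp1 and the hexamer in the others, each of which reads on the opposite strand. It starts 228 bases before the gene start in Cd36 and 107 in Acsm1.
Fabp1: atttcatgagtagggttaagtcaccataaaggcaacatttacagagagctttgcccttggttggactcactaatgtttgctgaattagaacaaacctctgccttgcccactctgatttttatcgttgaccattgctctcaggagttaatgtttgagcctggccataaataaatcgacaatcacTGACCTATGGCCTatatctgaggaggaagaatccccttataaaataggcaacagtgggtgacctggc
Cd36: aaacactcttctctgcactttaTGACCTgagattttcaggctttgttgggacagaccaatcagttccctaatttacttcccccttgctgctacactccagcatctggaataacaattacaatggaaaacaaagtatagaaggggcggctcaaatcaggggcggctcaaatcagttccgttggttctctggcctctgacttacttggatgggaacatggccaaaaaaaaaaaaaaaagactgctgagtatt
Acsm1: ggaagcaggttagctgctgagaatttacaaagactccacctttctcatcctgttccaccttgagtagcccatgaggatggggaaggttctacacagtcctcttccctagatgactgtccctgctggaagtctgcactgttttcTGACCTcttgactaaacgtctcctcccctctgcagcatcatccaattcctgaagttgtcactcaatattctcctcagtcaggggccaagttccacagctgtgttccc
Of the 9 genes with the hexamer, Acsm1 was called lower and Cd36 higher, and the other 7, Fabp1 among them, were not called. For comparison, 25% of the 48 genes and 11.9% of all genes tested were called.

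Acyl-CoA synthetases, which activate fatty acids before any oxidation, were called lower in 3 of 6 genes (50%, against 5.03% of all genes tested). The median log2 change of the 6 was -0.89. Acsl1, the main long-chain synthetase of liver, had levels of 12.51, 12.23 and 11.95 in WT against 10.43, 11.01 and 10.67 in SRSF3HKO. Every SRSF3HKO array lay below every WT array, and the fall of 2.88-fold (log2 change -1.53 ± 0.22, limma adjusted p = 0.00683) was the one call of the 12 that no alternative ended. Acsl5, a second long-chain synthetase, had levels of 11.67, 11.34 and 11.26 in WT against 10.65, 9.98 and 10.67 in SRSF3HKO. Its groups did not overlap, and it fell 1.99-fold (log2 change -0.99 ± 0.24, limma adjusted p = 0.0353). Its call ended without any 1 of the WT arrays (limma adjusted p = 0.146, 0.114 and 0.0888) and with a mean or a median polish over its probe sets (0.0745 and 0.0767). Acsm1, a medium-chain synthetase of mitochondria, had levels of 11.13, 11.01 and 11.05 in WT against 9.41, 8.38 and 9.95 in SRSF3HKO. The WT arrays were close together, the SRSF3HKO arrays were spread below them, and the fall was 3.52-fold (log2 change -1.82 ± 0.36, limma adjusted p = 0.0189). Leaving out WT replicate 1, 2 or 3 ended the call (limma adjusted p = 0.0861, 0.0863 and 0.0699). Acsm3, a related medium-chain enzyme, was also lower on all SRSF3HKO arrays (log2 change -0.78 ± 0.27, limma adjusted p = 0.0957) without passing the test, and was called with array weights (0.0453). The changes of Acsl3 (-0.48, 95% interval -1.09 to 0.13) and Acsl4 (0.51, -0.12 to 1.14) pointed in opposite directions, and their groups overlapped.

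Mitochondrial oxidation genes had no call among 16, with 7 changes above 0, 9 below and a median log2 change of -0.11. Their median absolute change was 0.36, against 0.85 for the 11 peroxisomal genes. The arrays of the genotypes did not overlap for 9 of the 16 (56.3%, against 35.6% of all genes tested), 2 higher and 7 lower. Entry of long chains is set by Cpt1a, the outer membrane carnitine transferase, whose levels were 10.77, 10.66 and 10.89 in WT against 10.84, 11.48 and 10.75 in SRSF3HKO. They overlapped, with SRSF3HKO replicate 2 highest, and the interval of the change, -0.27 to 0.77 around 0.25, leaves room for either direction. Cpt2, its inner membrane partner, had a change of -0.58 (-1.32 to 0.17) that was set mainly by SRSF3HKO replicate 2, at 8.57 against 9.82 and 9.73 on the other SRSF3HKO arrays. Slc25a20, the carnitine carrier between them and not one of the 48 genes, was at 0.27 ± 0.17 (limma adjusted p = 0.326).

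Among the acyl-CoA dehydrogenases, which take the first oxidation step, the long-chain and short-chain enzymes Acadl (-0.45, -0.85 to -0.06) and Acads (-0.59, -1.07 to -0.11) lay below WT on every SRSF3HKO array without being called. The very-long-chain and medium-chain enzymes Acadvl (0.13, -0.27 to 0.52) and Acadm (0.26, -0.21 to 0.73) overlapped between genotypes. Hadha and Hadhb encode the subunits of the trifunctional protein, which carries out the later steps on long chains. Hadha was at -0.01, with an interval of -0.39 to 0.37, and Hadhb at 0.24 (-0.13 to 0.61), higher on every SRSF3HKO array. Hadh and Acaa2, the dehydrogenase and thiolase for shorter chains, were lower on all SRSF3HKO arrays (-0.83 ± 0.28 and -0.53 ± 0.17, limma adjusted p = 0.0908 and 0.0806). Echs1 (-0.21), the short-chain hydratase, and Eci1 (0.17), an isomerase for unsaturated chains, overlapped between genotypes, and Decr1, a reductase for unsaturated chains, was at -0.79 (-1.61 to 0.02).

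The electron transfer flavoprotein and its dehydrogenase, which pass electrons from all acyl-CoA dehydrogenases to ubiquinone, held the mitochondrial gene with the lowest p. Etfdh, the dehydrogenase, had levels of 11.81, 11.46 and 11.87 in WT against 10.84, 11.19 and 11.11 in SRSF3HKO. Its arrays did not overlap, and its log2 change of -0.67 ± 0.19 missed the threshold (limma adjusted p = 0.0569). The subunit genes pointed the other way: Etfb was at 0.48 ± 0.17 (limma adjusted p = 0.100) with no overlap and Etfa at 0.23 ± 0.18 with overlap. Without SRSF3HKO replicate 2, Etfdh and Acads were called lower and Etfb higher (limma adjusted p = 0.0301, 0.0401 and 0.0301), so the count of 0 mitochondrial calls became 3. Array weights called the same 3 genes (limma adjusted p = 0.0197, 0.0448 and 0.0350), and Etfdh alone was called with median centring or a filter at the median (0.0439 and 0.0457). Calls rose over all genes as well, from 802 higher and 589 lower to 1383 and 772 without SRSF3HKO replicate 2. With array weights they were 1265 and 892, so the rise is not particular to the mitochondrial genes. At an unadjusted p under 0.05, 6 of the 16 passed, against 29% of all genes tested. The mitochondrial median was 0.02 between arrays with Y-linked signal and -0.23 between those without it.

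**Figure D2:**
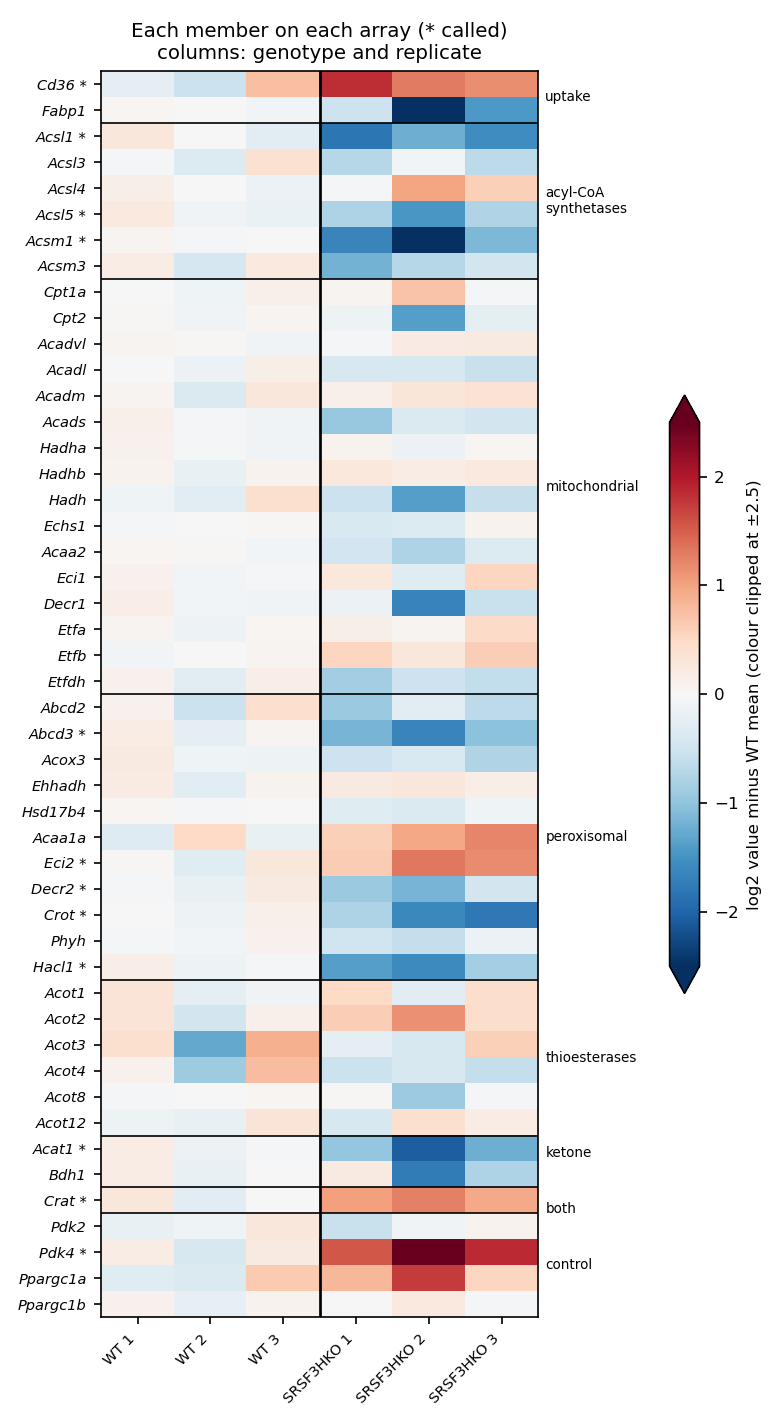
Level of each measured gene on each array minus its WT mean, on the log2(intensity + 16) scale, with genes in rows grouped by step, arrays in columns and an asterisk for called genes. The synthetase median lies at -0.98, -0.96 and -0.71 on SRSF3HKO replicates 1, 2 and 3, the peroxisomal median at -0.52, -0.37 and -0.47, and the mitochondrial median at -0.09, -0.32 and 0.01.

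Peroxisomal genes had 5 calls among 11 (45.5%, against 11.9% of all genes tested), 4 lower and 1 higher, and a median log2 change of -0.55. Their arrays did not overlap for 9 of the 11 (81.8%, against 35.6% of all genes tested), 7 lower and 2 higher. Abcd3, the peroxisomal membrane transporter that imports branched-chain and dicarboxylic acyl-CoA, had levels of 11.87, 11.43 and 11.75 in WT against 10.53, 10.04 and 10.65 in SRSF3HKO. All SRSF3HKO arrays lay below WT, a 2.42-fold fall (log2 change -1.28 ± 0.22, limma adjusted p = 0.0122) that missed the threshold once WT replicate 1 or 3 was left out (limma adjusted p = 0.0749 and 0.0561). Abcd2, a transporter of very long chains, overlapped between genotypes (-0.62, -1.29 to 0.04). Crot, the octanoyltransferase that prepares shortened chains for export to mitochondria, had levels of 12.23, 12.08 and 12.33 in WT against 11.44, 10.60 and 10.43 in SRSF3HKO. The groups were apart, and the 2.62-fold fall (log2 change -1.39 ± 0.27, limma adjusted p = 0.0171) was the largest among the peroxisomal genes called lower. Hacl1, the lyase that shortens branched chains by alpha-oxidation, had levels of 11.92, 11.64 and 11.73 in WT against 10.39, 10.16 and 10.91 in SRSF3HKO. These also did not overlap, and Hacl1 fell 2.43-fold (log2 change -1.28 ± 0.22, limma adjusted p = 0.0125). Crot and Hacl1 both lost their call when WT replicate 1 was left out (limma adjusted p = 0.0830 and 0.0764), 2 (0.0760 and 0.0603) or 3 (0.0719 and 0.0518).

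Enzymes for unsaturated chains moved in opposite directions. Decr2, the peroxisomal dienoyl-CoA reductase, had levels of 10.84, 10.72 and 11.13 in WT against 9.96, 9.74 and 10.43 in SRSF3HKO. The groups did not overlap, but its 1.81-fold fall (log2 change -0.85 ± 0.23, limma adjusted p = 0.0473) lay just inside the threshold and was lost in 8 of 18 alternatives, among them without any 1 WT array (limma adjusted p = 0.147, 0.116 and 0.165) and without SRSF3HKO replicate 1 or 2 (0.0905 and 0.0503). It was -0.35 between the arrays with Y-linked signal and -1.28 between those without. Eci2, an enoyl-CoA isomerase found in peroxisomes and mitochondria, had levels of 10.01, 9.67 and 10.25 in WT against 10.61, 11.29 and 11.15 in SRSF3HKO. Counted as peroxisomal here, it was the one gene of that group called higher (2.06-fold, log2 change 1.04 ± 0.25, limma adjusted p = 0.0326), with no overlap. It was not called without WT replicate 1, 2 or 3 or SRSF3HKO replicate 3 (limma adjusted p = 0.118, 0.131, 0.0666 and 0.0752).

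The core enzymes of the peroxisomal spiral were not called. Acox3, an oxidase acting on branched chains, had levels of 8.12, 7.78 and 7.77 in WT against 7.37, 7.52 and 7.14 in SRSF3HKO, all of the latter lower (log2 change -0.55 ± 0.20, limma adjusted p = 0.116, or 0.0479 with array weights). The bifunctional enzymes Ehhadh (0.22, -0.20 to 0.65) and Hsd17b4 (-0.26, -0.64 to 0.11), which carry out hydration and the following oxidation, lay on either side of 0. Phyh, the hydroxylase that opens alpha-oxidation, was lower on all SRSF3HKO arrays (-0.41 ± 0.17, limma adjusted p = 0.156). Acaa1a, a peroxisomal thiolase, rested on 2 probe sets and was higher on all SRSF3HKO arrays (0.93 ± 0.27, limma adjusted p = 0.0614). It was called without SRSF3HKO replicate 1 and with array weights (limma adjusted p = 0.0450 and 0.0224), but the one probe set of Acaa1a bright enough to test changed by 0.50 and was not called. The 28 probe sets it shares with Acaa1b were not used, and its value is uncertain for that reason.

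Crat, the carnitine acetyltransferase that works in both organelles and buffers acetyl-CoA as its carnitine ester, had levels of 8.32, 7.74 and 8.02 in WT against 9.05, 9.28 and 8.98 in SRSF3HKO. It rose 2.11-fold with no overlap (log2 change 1.08 ± 0.21, limma adjusted p = 0.0192), the opposite direction to Crot, the other acyl carnitine transferase that was called. Its call was lost when WT replicate 1, 2 or 3 was left out (limma adjusted p = 0.0551, 0.0845 and 0.0784). Acyl-CoA thioesterases, which release free fatty acid from acyl-CoA in either organelle or the cytosol, had 0 calls among 6 and a median log2 change of 0.03. The one without overlap was Acot2, a mitochondrial member, with levels of 8.70, 7.94 and 8.52 in WT against 9.00, 9.52 and 8.83 in SRSF3HKO (log2 change 0.73 ± 0.27, limma adjusted p = 0.121). With a mean or a median polish over its probe sets in place of the median, Acot2 was called higher (limma adjusted p = 0.0341 and 0.0249). Acot2 and its near copy Acot1 (0.23, -0.38 to 0.84) share 4 further probe sets that were not used, so the split between them is uncertain. Acot3, Acot4, Acot8 and Acot12 overlapped, and the interval of Acot3 was the widest of the 6, from -1.23 to 1.20. At an unadjusted p under 0.05, 1 of the 6 thioesterases passed, against 29% of all genes tested.

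Ketone body formation was represented by Acat1, the mitochondrial acetoacetyl-CoA thiolase at its first step, and Bdh1, the dehydrogenase that makes beta-hydroxybutyrate. Acat1 had levels of 11.77, 11.45 and 11.56 in WT against 10.62, 9.54 and 10.38 in SRSF3HKO. All SRSF3HKO arrays lay below WT, with replicate 2 lowest, and the fall was 2.67-fold (log2 change -1.42 ± 0.28, limma adjusted p = 0.0195). Leaving out WT replicate 1, 2 or 3 ended the call (limma adjusted p = 0.0945, 0.0797 and 0.0710). Bdh1 had levels of 11.17, 10.79 and 10.99 in WT against 11.21, 9.24 and 10.22 in SRSF3HKO. SRSF3HKO replicate 1 was above all WT arrays and the other SRSF3HKO arrays were below them, so the groups overlapped (log2 change -0.76 ± 0.43, limma adjusted p = 0.285). Without SRSF3HKO replicate 1 the change of Bdh1 was -1.25 and called lower (limma adjusted p = 0.0395).

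Of the control genes, Pdk4 had the largest change of all 48 genes. Pdk4, a kinase that switches off pyruvate dehydrogenase and so spares glucose when fatty acids are burned, had levels of 5.88, 5.30 and 5.92 in WT against 7.24, 9.56 and 7.56 in SRSF3HKO. WT replicate 2 lay below the floor and the other WT arrays were close to it, whereas all SRSF3HKO arrays were well above, replicate 2 most of all. The rise was 5.36-fold (log2 change 2.42 ± 0.55, limma adjusted p = 0.0287), and it missed the threshold with WT replicate 1, 2 or 3 left out (limma adjusted p = 0.0981, 0.128 and 0.0832). Without SRSF3HKO replicate 2 the log2 change of Pdk4 was 1.70, a 3.26-fold rise, and with a pseudocount of 64 it was 1.74, a 3.35-fold rise. Ppargc1a, a coactivator of PPAR-alpha and of mitochondrial genes, had levels of 6.44, 6.38 and 7.40 in WT against 7.58, 8.49 and 7.28 in SRSF3HKO. SRSF3HKO replicate 2 was again highest, SRSF3HKO replicate 3 lay below WT replicate 3, and the change was not called (1.04 ± 0.38, limma adjusted p = 0.116). Its relative Ppargc1b (0.06, -0.37 to 0.49) and the kinase Pdk2 (-0.19, -0.73 to 0.35) overlapped between genotypes.

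**Figure D3:**
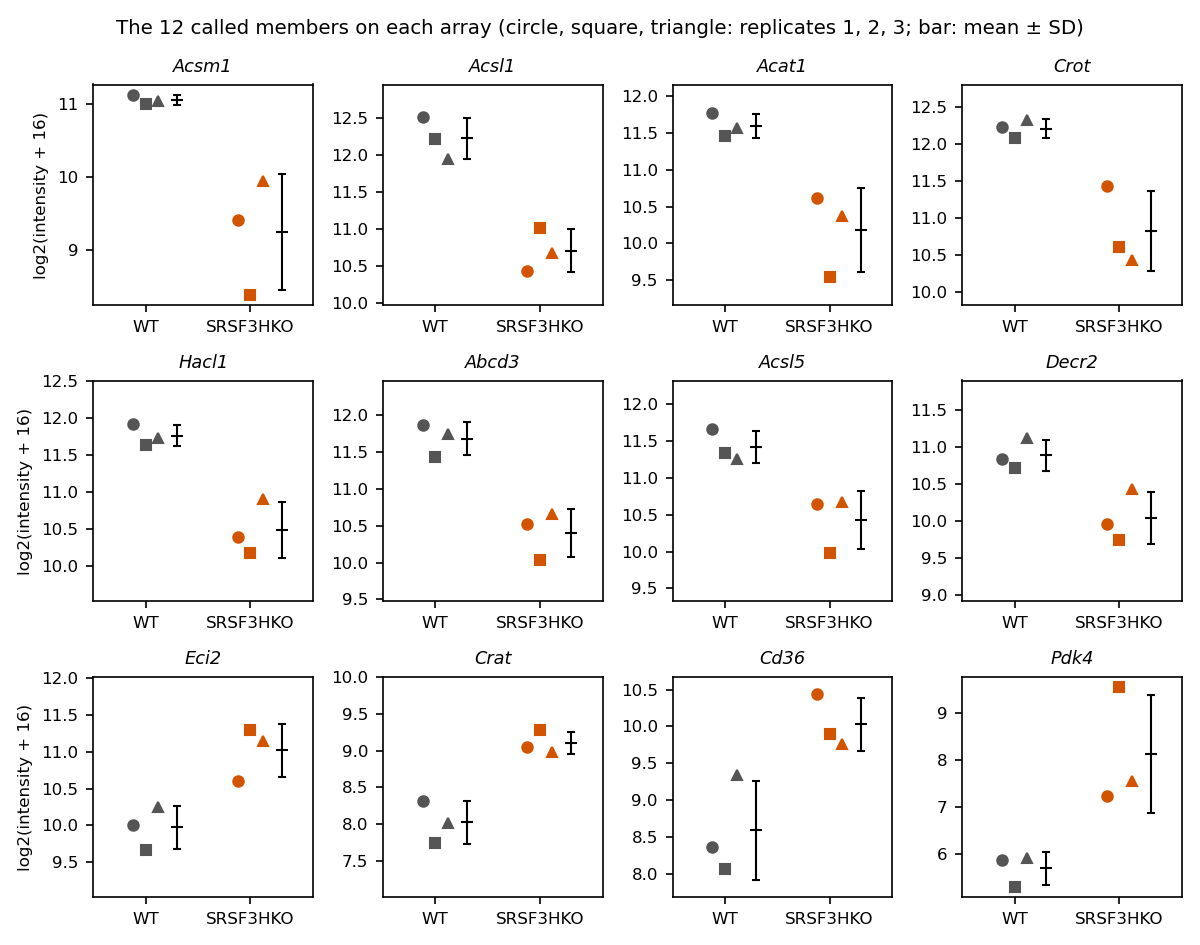
Levels of the 12 called genes on each array, as log2(intensity + 16), with circles, squares and triangles for replicates 1, 2 and 3 of each genotype and a bar for the mean with its SD. No SRSF3HKO array lies within the WT range of the same gene, and the widest spread among SRSF3HKO arrays is that of Pdk4, from 7.24 to 9.56.

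Single probe sets show whether the parts of a gene's RNA moved together. Of the 681 probe sets bright enough to test, 137 were called lower (20.1%, against 4.32% of all probe sets tested) and 55 higher (8.08%, against 4.73%). Probe sets of a gene are not independent, and most of these calls lay in the 12 called genes, so the shares are no separate result. In Acsl1 all 27 tested probe sets were called lower, in Abcd3 all 24 and in Acat1 all 15. In Crot 17 of 18 were called lower, in Acsm1 15 of 17, in Hacl1 16 of 20, in Decr2 6 of 10 and in Acsl5 7 of 22. Among the genes called higher, 16 of 21 probe sets passed in Cd36, 11 of 13 in Eci2, 11 of 16 in Crat and 9 of 12 in Pdk4. No called gene had a probe set called against its direction, and in 11 of the 12 every tested probe set had a change of one sign. Of the uncalled genes, Etfdh had 4 of 18 probe sets lower, Acaa2 had 2 of 13 lower, Acot2 had 3 of 5 higher and Ppargc1a 2 of 12 higher. Acads, Acsm3, Acox3 and Phyh had 1 lower each, and Acsl4, Cpt1a and Ehhadh had 1 higher each. For 1 probe set of Crat and 4 of Pdk4 called higher, the WT mean lay below the probe set floor of 5.63, and against that floor they were at least 4.46-fold to at least 5.86-fold higher. Leaving out 1 array in turn gave 30 to 170 probe sets called lower and 2 to 64 called higher.

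**Figure D4:**
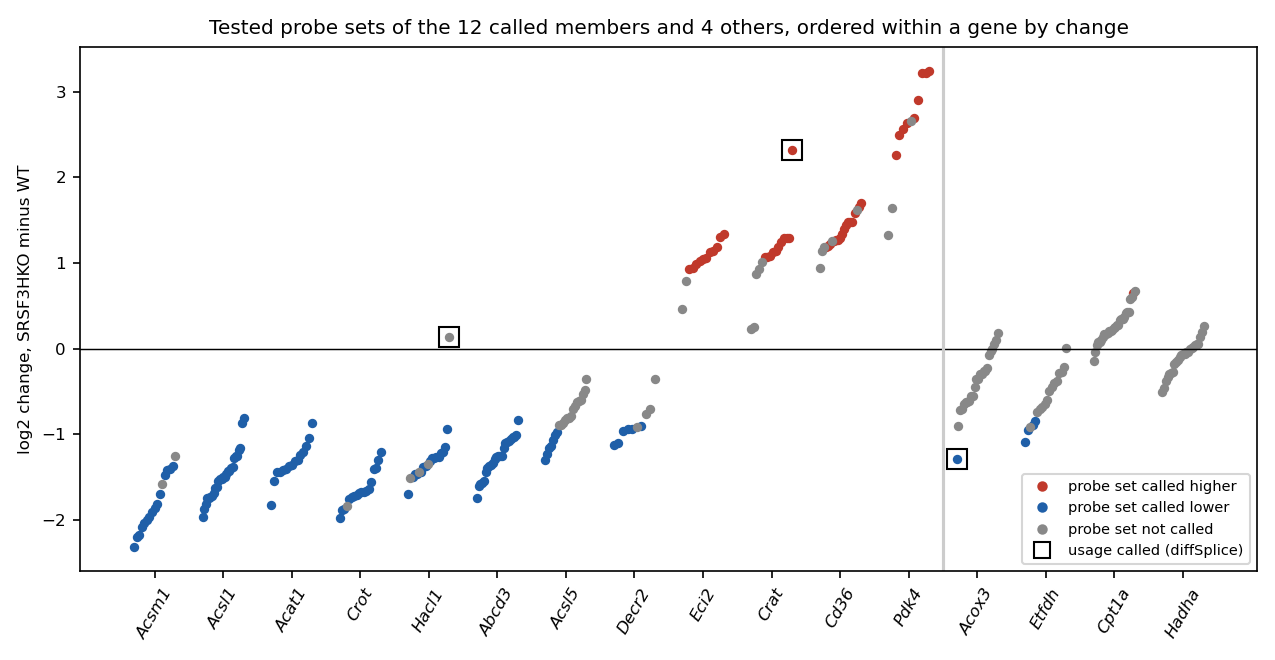
Log2 change of every tested probe set of the 12 called genes and 4 others, SRSF3HKO minus WT, ordered by change within each gene. The points of Acsl1, Abcd3 and Acat1 all lie at -0.81 or below, whereas 1 point of Hacl1 lies at 0.14, above the other 19, which run from -1.70 to -0.93.

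Usage, by how much a probe set departs from the change of its gene, was called by limma's diffSplice for 3 of 680 probe sets of these genes (0.441%), against 0.662% of all 142800 probe sets tested. At an unadjusted p under 0.05 there were 28, which is 4.12%, against 6.73% of all. Probe set 4643354 of Hacl1 had intensities of 140, 153 and 127 in WT against 164, 148 and 156 in SRSF3HKO, while the rest of the gene fell, and its usage changed by 1.48 on the log2 scale (diffSplice adjusted p = 0.00177). Probe set 5614562 of Crat had intensities of 39.9, 28.5 and 19.0 in WT against 129, 318 and 206 in SRSF3HKO, a rise beyond that of the gene (usage 1.31, diffSplice adjusted p = 0.00328). Its WT mean lay below the probe set floor, so this size depends on the pseudocount: with 64 the usage of the Crat probe set was 0.66 and not called (adjusted p = 0.210). Probe set 4946929 of Acox3 had intensities of 303, 210 and 241 in WT against 94.5, 130 and 63.0 in SRSF3HKO, below the rest of that gene (usage -0.93, diffSplice adjusted p = 0.0370). The genotypes did not overlap at the Crat and Acox3 probe sets and overlapped at that of Hacl1. With a splicing index, the probe set minus its gene on each array, limma called none of them (adjusted p = 0.243, 0.243 and 0.213), and it called 0.0168% of all probe sets. The diffSplice test takes 1 spread for all probe sets of a gene. Hacl1 lost this call when WT replicate 1 or 3 was left out (adjusted p = 0.0728 and 0.0783), Crat without WT replicate 3 or SRSF3HKO replicate 3 (0.145 and 0.0616), and Acox3 without any 1 array other than SRSF3HKO replicate 2 (0.0813 to 0.352). Where these probe sets lie in the genes was not analysed here.

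Other genes of the same pathways were listed beside the 48 to give them context. Of 100 such genes, 79 were tested, and the rest had no probe sets of their own or lay below the floor and were not analysed here. Among 25 further genes of peroxisomal oxidation and peroxisome assembly 4 were called lower and 0 higher (16%, against 11.9% of all genes tested), with a median log2 change of -0.34. Nudt7, a peroxisomal hydrolase of coenzyme A, had levels of 12.36, 12.24 and 11.89 in WT against 9.23, 7.92 and 10.11 in SRSF3HKO, an 8.43-fold fall (log2 change -3.08 ± 0.48, limma adjusted p = 0.00862) that was 5.07-fold with a mean over the probe sets of Nudt7. Cat, the catalase that removes the hydrogen peroxide made by peroxisomal oxidases, fell from 13.01, 12.75 and 12.98 to 11.44, 11.11 and 11.64 (log2 change -1.52 ± 0.19, limma adjusted p = 0.00368). Both were lower on every SRSF3HKO array, and Cat was called in all 18 alternatives, whereas Nudt7 missed the threshold once WT replicate 1 or 2 was left out (limma adjusted p = 0.0530 and 0.0578). Pex5, the receptor that imports matrix proteins, and Pex6, an ATPase that recycles it, were called lower as well (-1.11 ± 0.25 and -0.80 ± 0.19, limma adjusted p = 0.0301 and 0.0362).

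Among 18 further mitochondrial genes 2 were called lower and 1 higher (16.7%), with a median log2 change of 0.04. These were the medium-chain synthetase Acsm5 (-1.65 ± 0.34, limma adjusted p = 0.0209), the branched-chain dehydrogenase Acadsb (-1.14 ± 0.27, limma adjusted p = 0.0321) and the thioesterase Acot9 (1.06 ± 0.21, limma adjusted p = 0.0182). Of 5 other genes of ketone bodies 1 (20%) was called, Bdh2, a cytosolic short-chain dehydrogenase, which was lower (-1.53 ± 0.32, limma adjusted p = 0.0225). Among 23 tested genes of PPAR-alpha, its partners and its targets 2 were lower and 1 higher, with a median of -0.05. Those 3 calls are 13.0%, near the 11.9% of all genes tested. All 3 were receptors, and none of the target genes tested in this list was called. Ppara itself had levels of 9.74, 9.62 and 9.88 in WT against 8.39, 9.17 and 8.89 in SRSF3HKO, with no overlap (log2 change -0.93 ± 0.23, limma adjusted p = 0.0404). Its partner Rxra was lower as well (-0.77 ± 0.19, limma adjusted p = 0.0349), and the receptor Esrra, which works with Ppargc1a on mitochondrial genes, was higher (1.45 ± 0.24, limma adjusted p = 0.0104). Of 8 further genes around pyruvate dehydrogenase 1 (12.5%, again near that share) was called, Dlat, its acetyltransferase subunit, which was lower (-1.10 ± 0.25, limma adjusted p = 0.0286). Apart from Cat, Nudt7 and Esrra, which lost its call without WT replicate 2 (limma adjusted p = 0.0569), the 9 other called genes of these lists were not called without any 1 of the WT arrays (limma adjusted p = 0.0605 to 0.142). Of these 9, all but Acot9 also lost the call in the fit that held the Y-linked signal (limma adjusted p = 0.0569 to 0.0921). Ppara was not called in 9 of 18 alternatives and Pex5 in 8.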

How the data were processed

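Core exon signals were summarised by the authors with PLIER and Affymetrix Expression Console, per the submitters' processing notes. The deposited values are linear PLIER intensities on 6 arrays, and the versions and background step are not given in the sources used here. Probe sets were named through the annotation supplied with the series: 208397 had 1 gene, and 3965 with several and 17219 with none were left out. Deposited intensities were turned into log2(intensity + 16), which understates the change of dim genes, and the median of its probe sets gave the level of a gene. A gene entered the test if it was on average brighter than the 90th percentile of 1046 receptor genes (log2 5.35), and a probe set if brighter than that of their probe sets (log2 5.63).

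The genotypes were compared in R 4.3.3 with data.table version 1.17.8 by lmFit and eBayes with trend of limma 3.58.1. Adjustment was by Benjamini-Hochberg over all 11711 genes or 157764 probe sets, and the threshold on the adjusted p was 0.05. Usage was tested with diffSplice in genes with at least 3 tested probe sets. The number of arrays limits the precision. Replicate numbers follow sample order and pair no arrays. Values on every array are given for called genes, the 12 largest changes, genes with a probe set called for usage and the lowest p of each step. A few others, such as Cpt1a and Bdh1, were added after their values were seen. The genes and lists were chosen with earlier results of these data known, so their counts are descriptions. Alternatives covered pseudocounts, normalization, probe set summary, filters, eBayes settings, the Y-linked signal, the splicing index and leaving out each array. The other pathway genes were put through them after the data were seen. The pipeline was tested on simulated data. Promoters and figures were handled in Python 3.11.15 (matplotlib 3.10.9, pandas 2.3.3, numpy 2.4.6).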

Additional observations from a re-analysis of the deposited data

How the results depend on the processing

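Of the 48 genes, 4 were called higher and 8 lower. Leaving out 1 array in turn gave 0 to 5 higher and 1 to 10 lower, and the Y-linked signal as a covariate gave 0 and 5. Over all genes, 802 higher and 589 lower became 315 and 303 with that covariate and 114 and 130 without WT replicate 1, so fewer calls were made there among all genes as well. Probe sets called higher ranged from 2 to 64 and lower from 30 to 170 without 1 array, and were 18 and 89 with the covariate. Probe sets with changed usage ranged from 0 to 13 without 1 array and were 0 by the splicing index. Without 1 array the median log2 change ranged from -1.03 to -0.78 for synthetases, from -0.20 to -0.07 for mitochondrial genes, from -0.64 to -0.41 for peroxisomal genes, from -0.16 to 0.21 for thioesterases and from -1.44 to -0.68 for ketone body genes. The peroxisomal median was -0.44 with a mean over probe sets. Between arrays with Y-linked signal the medians were -0.65 (synthetases), 0.02 (mitochondrial), -0.35 (peroxisomal) and 0.38 (thioesterases), and between those without it -1.07, -0.23, -0.65 and -0.40. The causes were not tested. No paired analysis was possible because the labels give no replicate numbers shared between genotypes.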
